A study of Mus musculus with 13 samples.

Results

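The genes described here are 10 transcription factor genes that mark where in the body, and above all in which limb, a mesenchymal cell arose: Hoxa10, Hoxa11, Hoxc8, Hoxc9, Hoxc10, Hoxd8, Hoxd9, Pitx1, Tbx4 and Prrx1. They were taken by symbol from a matrix of 23211 mouse genes, which held 9 of the 10. Tbx4, a T-box gene of the hindlimb bud, was not analysed here. RNA was sequenced from cells sorted by flow cytometry for the leptin receptor (LepR), a surface marker of marrow stromal cells, after tibia implantation in mice. The 7 fibrous libraries came from fibrotic tissue around implants that the labels call PMMA, and the 6 bone libraries from bone around implants that they call Pressfit. The labels give no strain, sex, age, genotype or time after implantation, and do not state whether each library had its own animal, so p-values describe the spread among these samples, part of which may be technical.

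Hox genes encode homeodomain proteins and lie in clusters in which the order of the genes follows the level of the body axis, or of the limb, at which each is active. Connective tissue and skeletal stem cells of the adult keep much of the Hox pattern of the region in which they formed. Pitx1 and Tbx4 are switched on in the hindlimb and not the forelimb bud, whereas Prrx1 is active in early mesenchyme of both limbs.

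Library totals ran from 16162321 to 44302166 counts, and between 14644 and 20146 genes were detected. Library names fell into the series L002 (5 fibrous and 4 bone) and XY9274 (2 fibrous and 2 bone). Within L002, fibrous 5, bone 3 and bone 4 carried the token Lin, and the names of the other 6, apart from fibrous 1, carried the token plus. Lepr itself went against the label in 5 libraries: it lay between 0.469 and 2.42 CPM, counts scaled to library size and composition (normalised CPM), in fibrous 1, fibrous 5 and bone 3 to 5, and between 46.7 and 804 in the other 8. Haemoglobin genes took 20.0% to 35.3% of the counts in the 3 Lin-named libraries and 0.128% to 11.9% in the others. The libraries are therefore called by their labels, and fibrous and bone libraries are compared with and without those low in Lepr.

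Hoxa10 (ENSMUSG00000000938; GRCm38/mm10 chromosome 6, 52231197 to 52240854, minus strand) is a determinant of the upper segment of the limb in mice, and Hoxa11 (ENSMUSG00000038210; chromosome 6, 52242106 to 52245810, minus strand), its neighbour, of the middle segment, where the tibia lies. Hoxd8 (ENSMUSG00000027102; chromosome 2, 74704615 to 74707933, plus strand) belongs to an earlier paralogue group of the D cluster. The 250 bases before the starts of these genes are shown because these are the genes of the set whose RefSeq start equals that of the gene model. They are RefSeq sequences on GRCm38.p6, written 5′ to 3′ on the strand of the gene, at chr6:52240855-52241104, chr6:52245811-52246060 and chr2:74704365-74704614. Capitals mark CpG dinucleotides, the sites of DNA methylation.
Hoxa10: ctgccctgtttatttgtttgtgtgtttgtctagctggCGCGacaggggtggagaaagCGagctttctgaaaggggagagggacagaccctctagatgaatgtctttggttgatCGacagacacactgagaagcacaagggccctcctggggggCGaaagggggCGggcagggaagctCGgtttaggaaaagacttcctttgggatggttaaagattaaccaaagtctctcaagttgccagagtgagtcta
Hoxa11: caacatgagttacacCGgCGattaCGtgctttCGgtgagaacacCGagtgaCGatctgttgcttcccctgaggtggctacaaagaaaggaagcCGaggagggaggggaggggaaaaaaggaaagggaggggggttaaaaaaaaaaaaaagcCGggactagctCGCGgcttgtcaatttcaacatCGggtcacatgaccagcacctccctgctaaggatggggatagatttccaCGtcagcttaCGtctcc
Hoxd8: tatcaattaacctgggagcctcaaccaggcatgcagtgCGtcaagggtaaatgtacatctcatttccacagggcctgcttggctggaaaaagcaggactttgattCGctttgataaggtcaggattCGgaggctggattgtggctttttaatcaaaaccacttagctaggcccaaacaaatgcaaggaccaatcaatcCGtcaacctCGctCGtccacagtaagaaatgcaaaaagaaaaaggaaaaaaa
Hoxa11 has 13 CpG in this window, Hoxa10 has 7 and Hoxd8 has 6, beside a median of 6 (quartiles 2 and 16) over 32851 RefSeq promoter windows of the same length. Their GC content was 52%, 51.6% and 44.4% in the same order. The homeodomain core TAATTA, the Pitx core TAATCC, the posterior Hox core TTTATG and the Pbx-Hox core TGATTNAT, searched on both strands, occur in 4.84%, 6.25%, 10.8% and 2.82% of these windows and in none of the 3 shown. That says only that these letters are not in these windows. RefSeq entries were found for 6 of the 10 genes, 3 of them with an equal start.

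Hoxa10 was the most abundant of the 9 genes once levels were divided by exon length. Its mean level was 4.26 ± 4.67 CPM per kb (SD over the 7 libraries) for fibrous and 2.07 ± 3.02 CPM per kb (SD over 6) for bone tissue. In fibrous libraries it was followed, again in CPM per kb, by Pitx1 (2.66 ± 3.09), Hoxc10 (1.38 ± 0.970), Hoxc9 (1.29 ± 1.53), Hoxc8 (1.23 ± 0.634), Prrx1 (1.01 ± 0.747), Hoxa11 (0.880 ± 1.11), Hoxd8 (0.537 ± 0.399) and Hoxd9 (0.136 ± 0.209). In bone libraries the order of mean level was Hoxa10, Hoxc10 (1.81 ± 2.80), Hoxc9 (1.36 ± 2.09), Pitx1 (0.892 ± 0.910), Hoxa11 (0.605 ± 1.43), Hoxc8 (0.389 ± 0.767), Prrx1 (0.385 ± 0.214), Hoxd8 (0.238 ± 0.506) and Hoxd9, which had 0 counts in all 6. Neighbours in both orders differed by less than the SD of the more abundant gene, apart from Hoxd8 and Hoxd9 in fibrous libraries, where the step about equalled it. The long gene model of Prrx1, with 11066 bases of exon, lowers its place in the order.

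Paralogue group 10 led the Hox genes in the means over libraries, to which the libraries with the highest levels gave most, and in 9 of the 13 libraries taken singly. Over the 23 Hox genes of the matrix, group 10 (Hoxa10 and Hoxc10) held 40.5% of the summed CPM per kb in fibrous and 41.3% in bone libraries, group 9 held 15.8% in fibrous and 20.2% in bone libraries, and group 8 held 12.7% in fibrous and 6.67% in bone libraries. Within single libraries the share of group 10 ran from 0.866% to 68% with a median of 35% in fibrous libraries, against 0 to 70.3% with a median of 34.5% in bone libraries. Group 8 led in fibrous 5 (1.57 CPM per kb, against 0.0322 for group 10), fibrous 6 (2.03 against 1.6) and bone 3 (1.27 against 0). In bone 4 group 2 led at 0.0863 CPM per kb, but this was 3 counts of Hoxb2, against 1 count of Hoxa10. Group 13, which patterns the foot, held 0.263% in fibrous libraries and 0 in bone libraries. By cluster, A held 54.8%, C 39.8%, D 4.83% and B 0.532% of the summed CPM per kb in fibrous libraries. In bone libraries A held 53.7%, C 42.5%, D 2.53% and B 1.29%. The measured D genes are Hoxd8 and Hoxd9 alone, and 8 further genes of the D cluster list were not analysed here. Of the 10 listed B genes only 3, Hoxb2, Hoxb3 and Hoxb4, were in the matrix. The shares of clusters and of paralogue groups therefore cover only the genes measured.

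**Figure D1:**
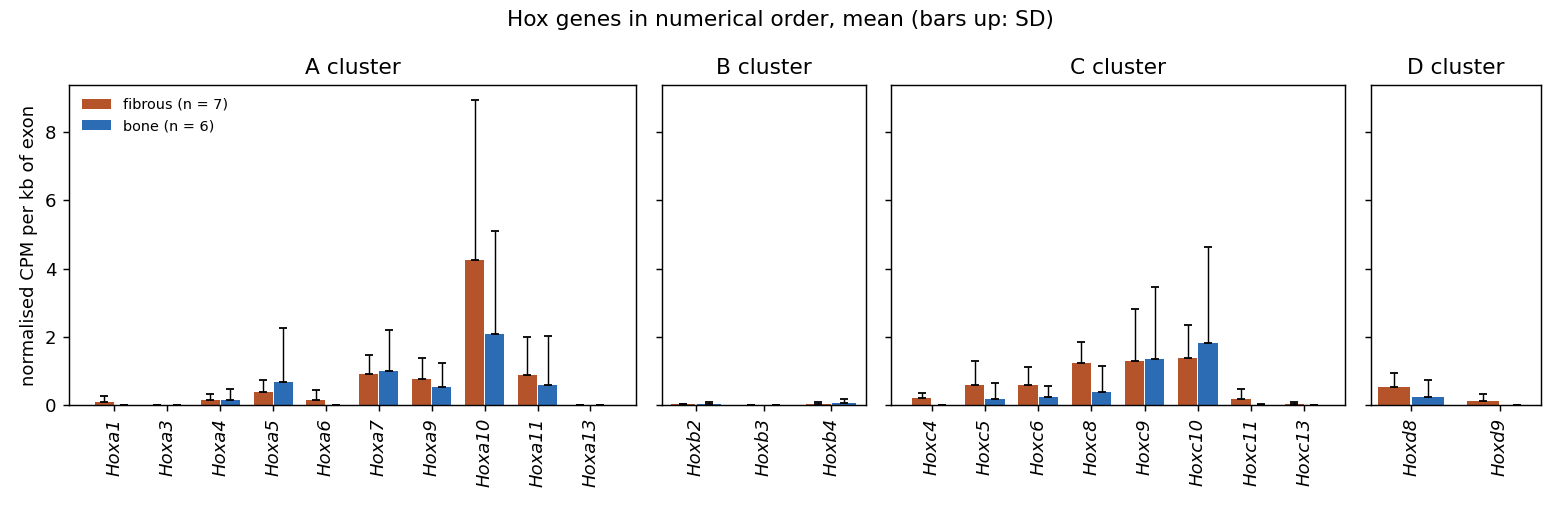
Mean level of each measured Hox gene in normalised CPM per kb of exon (bars) with the SD over libraries (lines), in the order of the genes' numbers within the A, B, C and D clusters, for fibrous (n = 7) and bone (n = 6) libraries. Hoxa10 has the tallest bars in both groups, 4.26 and 2.07 CPM per kb, and its SD exceeds its mean in both.

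The first comparison, the one the study names, set LepR-sorted cells of fibrous against those of bone tissue around the implant. None of the 8 tested genes was called after adjustment over all genes. EdgeR called 0 of 13294 genes at an adjusted p of 0.05 (0%), with 636 at an unadjusted p under 0.05, Prrx1 among them. The 8 genes had adjusted p between 0.873 and 0.994. Their fitted log2 fold changes of fibrous over bone libraries were all above 0, with a median of 1.25, beside 51.9% of genes above 0 and a median of 0.0260 over all genes tested. Hoxd9 did not pass the filter on low counts. Because a gene that is near 0 in bone libraries passes that filter only through its fibrous libraries, the shared sign carries no weight of its own. No gene of the 8 separated the groups without overlap, beside 0.0527% of all genes higher and 0.0150% lower in every fibrous library.

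Pitx1 (ENSMUSG00000021506; chromosome 13, 55825051 to 55836192, minus strand) is the homeodomain gene that gives the hindlimb bud its identity. Its normalised CPM was 0.234, 19.4, 17.8, 1.75, 1.48, 1.69 and 7.05 in fibrous 1 to 7, against 3.23, 5.59, 4.51, 0, 0.879 and 0 in bone 1 to 6. Fibrous 2 and fibrous 3 were above every bone library, fibrous 7 was above them by a smaller margin, and the other 4 fibrous libraries lay within the bone range. The log2 fold change was 1.87 (SE 1.35, adjusted p = 0.873). Without the 5 libraries low in Lepr, Pitx1 averaged 9.54 ± 8.58 CPM over the 5 fibrous and 2.94 ± 2.81 CPM over the 3 bone libraries left (SD), a log2 fold change of 2.71 (adjusted p = 0.840). Of the Pitx1 exons, 6.21% overlap the antisense gene Gm47071. The use of strand in counting is not given in the sources used here, so reads of Pitx1 and Gm47071 may be shared. The noncoding Gm28760, which has no row in the matrix, overlaps 4.07% on the same strand, where strand cannot tell reads apart.

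Prrx1 (ENSMUSG00000026586; chromosome 1, 163245119 to 163313710, minus strand) is a paired-type homeobox gene of limb bud and craniofacial mesenchyme whose regulatory sequence is widely used to target limb mesenchyme in mice. Prrx1 was the only one of the 9 genes with counts in all 13 libraries that exceeded the floor of 3 counts each time. Its normalised CPM was 3.91, 25.7, 19.1, 9.42, 4.12, 5.64 and 10.02 in fibrous 1 to 7, against 5.24, 7.25, 5.86, 2.61, 0.707 and 3.92 in bone 1 to 6. Fibrous 2, 3, 4 and 7 exceeded every bone library, while fibrous 1, 5 and 6 lay inside the bone range. Prrx1 had the smallest SE and the smallest p-value of the 8 genes, with a log2 fold change of 1.40 (SE 0.62, unadjusted p = 0.0415), but was not called after adjustment over all genes (adjusted p = 0.873). DESeq2 gave Prrx1 1.40 (adjusted p = 0.302) and limma 1.54 (adjusted p = 0.570). Without the libraries low in Lepr the fold change of Prrx1 was 1.37 (adjusted p = 0.769).

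**Figure D2:**
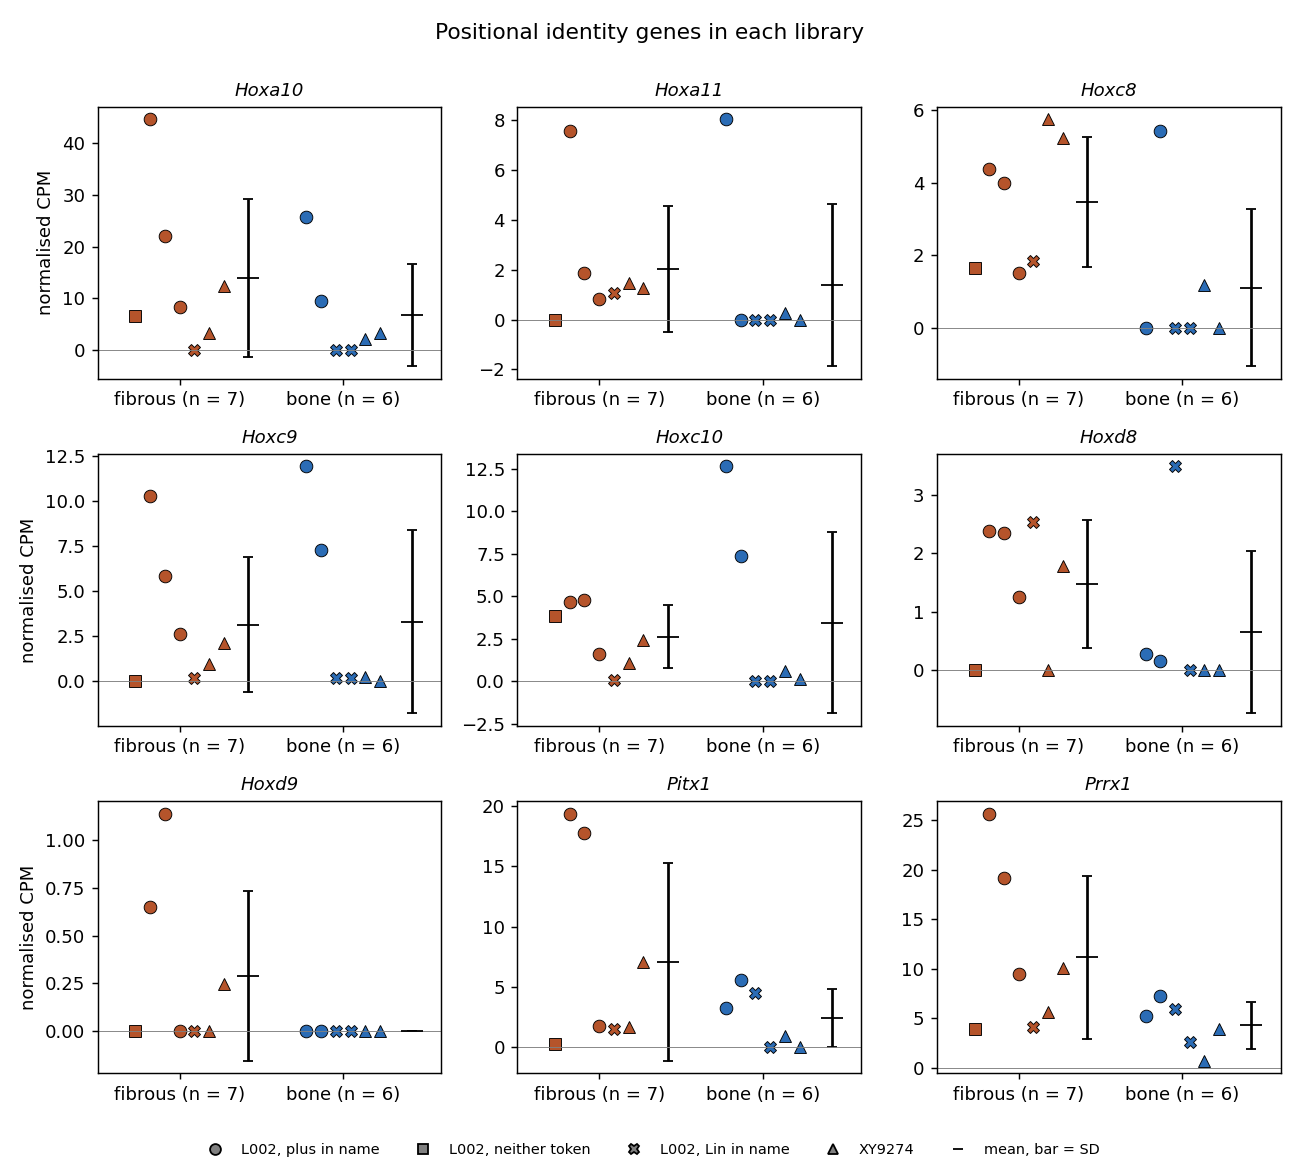
Normalised CPM of the 9 genes in each fibrous (n = 7) and bone (n = 6) library, with the mean (horizontal line) and SD (vertical bar) beside each group; marker shapes give the token in the library name. The points of fibrous and bone libraries overlap in every panel, and the crosses, the Lin-named libraries, lie at or near 0 for Hoxa10, Hoxc9 and Hoxc10, while 2 of the 3 crosses are the highest points for Hoxd8.

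Among the limb-segment genes, Hoxa10 was at 6.60, 44.6, 22.05, 8.32, 0, 3.40 and 12.5 normalised CPM in fibrous 1 to 7, against 25.7, 9.45, 0, 0.1003, 2.165 and 3.31 in bone 1 to 6. The range of Hoxa10 in bone libraries, to which bone 1 gave the upper end, covered all fibrous libraries but fibrous 2. Its log2 fold change was 1.09 (SE 1.35, adjusted p = 0.922), and 2.06 without bone 1 (lowest 0.55, without fibrous 2). Hoxc10 (ENSMUSG00000022484; chromosome 15, 102966796 to 102971893, plus strand), the C-cluster paralogue of Hoxa10, was at 3.87, 4.65, 4.81, 1.58, 0.0616, 1.06 and 2.41 CPM in fibrous 1 to 7, against 12.65, 7.38, 0, 0, 0.600 and 0.122 in bone 1 to 6. Hoxc10 was highest in bone 1 and bone 2, while the other 4 bone libraries lay below every fibrous library except fibrous 5. The log2 fold change of Hoxc10 was 0.07 (SE 1.39, adjusted p = 0.994) and fell on either side of 0 when single libraries were left out (-0.33 to 0.91). Hoxc10 shares 8.7% of its exon bases with Hoxc5 on the same strand.

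Hoxa11 ranged from 0 to 7.59 CPM with a median of 1.28 in fibrous libraries, against 0 to 8.04 with a median of 0 in bone libraries. In 4 of the 6 bone libraries Hoxa11 had no counts, and bone 1 alone held the level of fibrous 2. Its log2 fold change of 1.02 (SE 1.79, adjusted p = 0.934) was 5.75 without bone 1, 0.12 without fibrous 2 and 4.21 by limma (SE 1.525, unadjusted p = 0.0162, adjusted p = 0.570). Hoxa11 shares 35% of its exon bases with the antisense gene Hoxa11os, which reached 2.13 CPM in bone 1 and 1.58 in bone 2, where Hoxa11 had 0. Reads within the shared bases cannot be told apart without strand.

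The remaining Hox genes mark trunk and posterior levels of the body axis. Hoxc9 (ENSMUSG00000036139; chromosome 15, 102976439 to 102985099, plus strand) ranged from 0 to 10.3 CPM with a median of 2.11 in fibrous libraries, against 0 to 11.9 with a median of 0.218 in bone libraries. As with Hoxc10, bone 1 and bone 2 (7.29 CPM) stood among the highest libraries and the other 4 bone libraries lay at 0.236 CPM or below. Its log2 fold change was 0.62 (SE 1.59, adjusted p = 0.960).

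Hoxc8 (ENSMUSG00000001657; chromosome 15, 102990607 to 102994111, plus strand) had counts in all 7 fibrous libraries, at 1.64, 4.37, 4.01, 1.502, 1.85, 5.75 and 5.24 CPM in fibrous 1 to 7, against 0, 5.43, 0, 0, 1.18 and 0 in bone 1 to 6. Thus 5 of the 6 bone libraries lay below every fibrous library, and bone 2 was above all fibrous libraries but fibrous 6. The log2 fold change of Hoxc8 was 1.61 (SE 1.54, adjusted p = 0.898). Without bone 2 it was 5.73 (SE 1.70, adjusted p = 0.737), a value for which bone 5 alone of the bone libraries left had Hoxc8 counts. By limma it was 4.84 (SE 1.20, unadjusted p = 0.00145, adjusted p = 0.570). Apart from Hoxc8 and Hoxa11, the limma values of the 8 genes lay between 1.54 for Prrx1 and 2.91 for Pitx1. Bone 1, which was at the top for Hoxa11, Hoxc9 and Hoxc10, had no Hoxc8 counts, and 3 counts there would be 0.118 CPM.

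Hoxd8 was at 0, 2.39, 2.35, 1.26, 2.52, 0 and 1.79 CPM in fibrous 1 to 7, against 0.276, 0.166, 3.48, 0, 0 and 0 in bone 1 to 6. The Lin-named bone 3 and fibrous 5, at or near 0 for Hoxa10, Hoxc9 and Hoxc10, held the 2 highest values of Hoxd8. Its log2 fold change was 1.96 (SE 1.78, adjusted p = 0.891), and 4.33 without bone 3. Without the 5 libraries low in Lepr the fold change of Hoxd8 was 4.01 (SE 2.02, adjusted p = 0.798). Hoxd9 (ENSMUSG00000043342; chromosome 2, 74697727 to 74700208, plus strand) had counts only in fibrous 2, fibrous 3 and fibrous 7, at 0.651, 1.14 and 0.244 CPM, and 0 counts in all 6 bone libraries, where 3 counts would be between 0.0643 and 0.301 CPM. A count of 0 therefore limits Hoxd9 to below its level in fibrous 2 and 3, but in bone 4 not to below that in fibrous 7.

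The comparison was repeated within each name series. In L002 edgeR called 0 of 12761 genes (0%, with 648 at an unadjusted p under 0.05), and the fold changes of 6 of the 8 genes were positive, with -0.40 for Hoxc9 and -0.76 for Hoxc10 (median 0.79), beside 49.3% of genes above 0 and a median of -0.012 over all genes tested there. In XY9274 it called 0 of 15716 (0%, with 562 unadjusted), and all 7 genes that passed the filter were above 0, with a median of 3.12, beside 42.2% of genes above 0 and a median of -0.101 over all genes tested there. The limit of the filter given above holds within the series too. There Hoxc9 was at 0.949 and 2.11 CPM in fibrous 6 and 7, against 0.236 and 0 in bone 5 and 6 (log2 fold change 3.55, SE 2.02), and Hoxc8 at 5.75 and 5.24, against 1.18 and 0 (3.12, SE 2.18). The test of the difference between the series called 0 of 13294 genes (0%, with 292 unadjusted), and its smallest p among the 8 was that of Hoxd8 (unadjusted p = 0.0827, adjusted p = 1.00). DESeq2 called 169 genes (1.27%) and limma 0 (1151 unadjusted) in the comparison over both series, none of them among the 8. Without the 5 libraries low in Lepr, edgeR called 0 of 14635 genes (0%, with 913 unadjusted). Of the 8 genes, 7 were above 0 with a median of 1.13, beside 0.048 over all genes tested, and Hoxc10 was at -0.35. The limit of the filter holds there too. Hoxa10 was at 0.78, Hoxa11 at 0.89, Hoxc8 at 1.52 and Hoxc9 at 0.53, and the other fold changes are given above. Hoxa10 then averaged 18.2 ± 16.3 CPM over the 5 fibrous and 12.8 ± 11.55 CPM over the 3 bone libraries (SD), and Hoxc8 4.18 ± 1.65 CPM over the fibrous and 1.81 ± 3.13 CPM over the bone libraries.

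**Figure D3:**
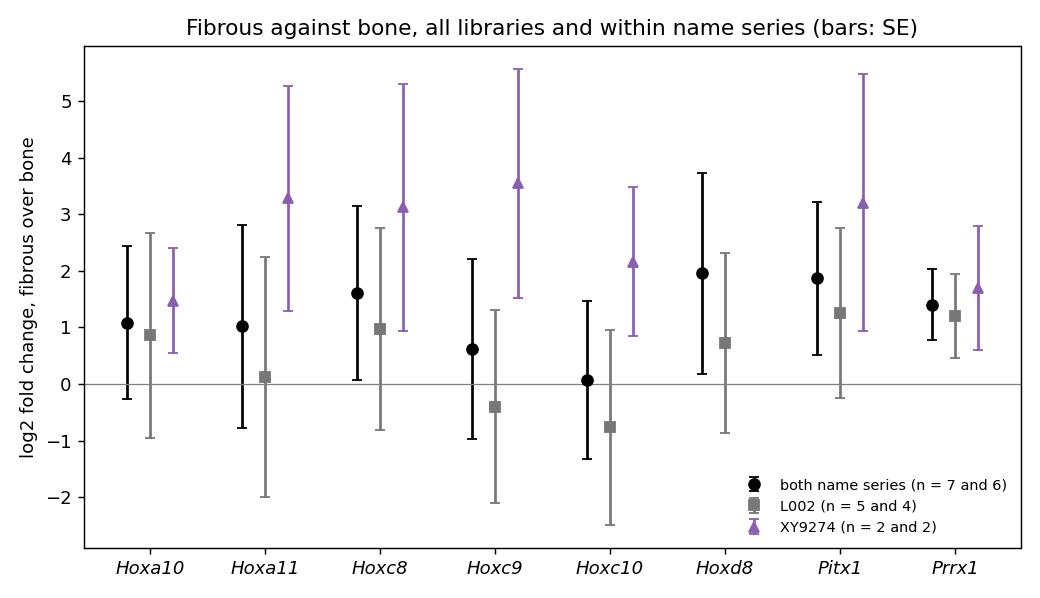
Log2 fold change of fibrous over bone libraries (y axis) for the 8 tested genes, with the SE as bars, over both name series (7 and 6 libraries), in L002 (5 and 4) and in XY9274 (2 and 2). The values over both series are all above 0, from 0.07 for Hoxc10 to 1.96 for Hoxd8, and in L002 Hoxc9 and Hoxc10 lie below 0.

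Cell type markers spanned wide ranges in both groups. The summed CPM of 10 marrow stromal markers was 39.0 to 12420 in fibrous and 16.95 to 1666 in bone libraries, with none of the 10 at 0 throughout a group. The 8 erythroid markers summed to 9133 to 237100 in fibrous and 2012 to 595400 in bone libraries, and 7 neutrophil markers to 622.9 to 22200 in fibrous and 1473 to 89190 in bone libraries. None of these markers was called between the groups, and their part in the values of the 9 genes was not tested. In bulk libraries a smaller share of cells that express a gene and less RNA per cell cannot be told apart.

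Across libraries, the sum of the 7 Hox genes of the set ordered the samples from fibrous 2 (74.5 CPM), bone 1 (58.5), fibrous 3 (42.1) and bone 2 (29.7) down to bone 3 (3.67), bone 6 (3.43) and bone 4 (0.301). All 4 of the leading libraries carry plus in their names. Fibrous 2, 3 and 7 had all 9 genes over 3 counts, whereas bone 4 had 1, Prrx1. Neither Lepr nor Col1a1, which encodes the main collagen chain of bone, gave exactly the same order, though that of Col1a1 was close. Fibrous 2, bone 1 and fibrous 3, at ranks 1, 2 and 3 in Hox sum, held ranks 2, 3 and 1 in Col1a1. Bone 2 (rank 4 in Hox sum and 8 in Col1a1) and bone 6 (12 and 7) departed most. The relation was not tested. The 4 libraries with the lowest Col1a1, fibrous 5 and bone 3 to 5 at 389 to 2714 CPM, ranked 9 to 12 of 13 in Lepr and were among the 5 lowest in Hox sum, and fibrous 2 was first in both Lepr and Hox sum. In fibrous 1, with 0.469 CPM of Lepr, the 7 Hox genes summed to 12.1 CPM, while in bone 6, with 102 CPM of Lepr, they summed to 3.43. Col1a1 was at 8429 CPM in fibrous 1 and 10140 in bone 6.

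**Figure D4:**
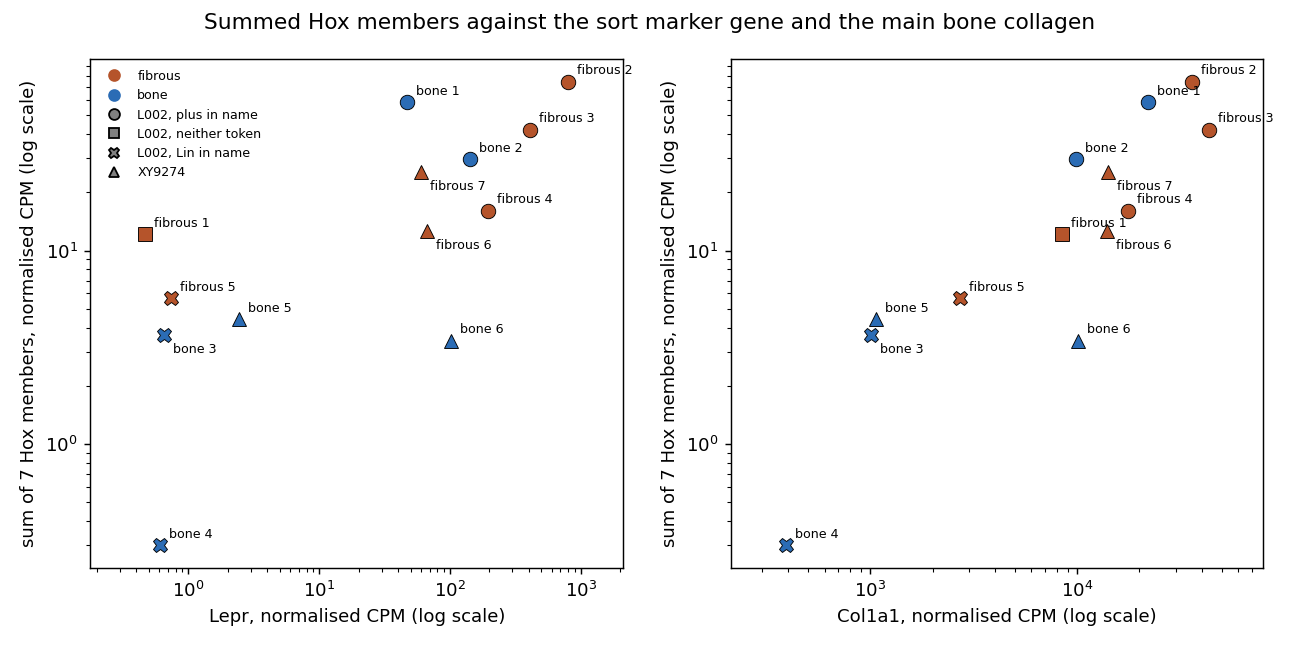
Summed normalised CPM of the 7 Hox genes (y axes) against Lepr (left) and Col1a1 (right) in each of the 13 libraries, all axes logarithmic; colours give the tissue and shapes the token in the library name. Fibrous 1 lies at 12.1 CPM of Hox with 0.469 CPM of Lepr, and bone 6 at 3.43 CPM of Hox with 102 CPM of Lepr. In the right panel, fibrous 2, bone 1 and fibrous 3 are the highest in both Hox sum and Col1a1.

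The genes did not all follow each other over the 13 libraries. Over these libraries, which share the differences in depth and composition given above, log2 CPM of Hoxa10 had a Pearson r of 0.91 with its paralogue Hoxc10 and of -0.015 with Hoxd8, and Pitx1 had 0.78 with Hoxc9 and 0.67 with Prrx1. The genes whose pattern was most like the mean of the Hox genes, among 9549 tested genes of at least 5 CPM, were C1qtnf6, a secreted C1q family protein gene (r = 0.967), Dbn1, which encodes the actin-binding drebrin (0.961), the heparan sulphate proteoglycan gene Sdc2 (0.952), Fkbp9 (0.947) and the collagen VI gene Col6a1 (0.945). For Pitx1 they were Tmem45a (0.926), Tln2 (0.920), Omd, which encodes osteomodulin (0.916), Fkbp1a (0.916) and Pea15a (0.913). For Prrx1 they were Lhfp (0.945), Fxyd1 (0.903), Gpx8 (0.901), Ckb (0.890) and S100a16 (0.889). Of each such 5, at most 1 was also among the top 5 by Spearman rho or over the 8 libraries with Lepr of at least 5 CPM, so the order within these lists depends on the measure.

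Of the 8 tested genes, Hoxa10 and Hoxc10 were called lower in the Lin-named libraries. Names divide L002 into 3 Lin-named libraries and 6 others, all under the same LepR+ label, so this compares library names and not a labelled treatment. Hoxa10 had 0, 0 and 1 counts in fibrous 5, bone 3 and bone 4 (at most 0.1003 CPM), against 6.60 to 44.6 CPM with a median of 15.75 in the other L002 libraries. Hoxc10 had 1, 0 and 0 counts (at most 0.0616 CPM), against 1.58 to 12.65 CPM with a median of 4.73. Both were lower in every Lin-named library than in every other L002 library, which held for 2 of the 8 genes, beside 9.1% of all 13710 genes tested in that direction. Hoxa10 and Hoxc10 passed the filter on low counts only through the other L002 libraries, so their shared direction carries no weight of its own.

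Both genes fell in the Lin-named libraries by edgeR, with adjusted p = 0.0430 for Hoxa10 and adjusted p = 0.0459 for Hoxc10. Over all 13710 genes 354 (2.58%) were called, 227 (1.66%) lower and 127 (0.926%) higher. The 3 Lin-named libraries held 1 count of Hoxa10, against 3291 in the other 6, a ratio of CPM of 0.00116 (95% interval 2.93e-05 to 0.00646, exact, counting error only). They held 1 count of Hoxc10, against 918, a ratio of 0.00416 (0.000105 to 0.0232). The fitted log2 fold changes, -9.26 (SE 1.496) and -7.62 (SE 1.53), depend on the added count. These edgeR calls were close to the threshold. DESeq2, which called 22.1% of genes, called both (adjusted p = 9.94e-09 for Hoxa10 and 8.33e-07 for Hoxc10). Leaving out 1 library at a time, Hoxa10 was called only without fibrous 1 (adjusted p = 0.0194) and lost in the other 8 cases, and Hoxc10 was called only without fibrous 1 or fibrous 5 and lost in the other 7, with the highest adjusted p of 0.128 for Hoxa10 without bone 3 and of 0.134 for Hoxc10 without bone 4. With limma, which called 2.64% of genes, Hoxc10 was called (adjusted p = 0.0394) and Hoxa10 was not (adjusted p = 0.0633). With the name tokens shared by bone 4 and bone 2, and by fibrous 5 and fibrous 2, as pairs in a replicate block, neither was called (adjusted p = 0.189 and 0.262).

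The other 6 tested genes did not pass. Hoxc9 was at 0.185 to 0.201 CPM in Lin-named libraries, which was 2 or 3 counts in each. In the others it was at 0 to 11.9 CPM with a median of 6.57, and fibrous 1 alone, at 0, lay below the Lin-named libraries. Its log2 fold change was -5.11 (SE 1.85, adjusted p = 0.142). Without fibrous 1 Hoxc9 was called (adjusted p = 0.0270), as it was by DESeq2 on all 9 libraries (adjusted p = 0.00368). The fold changes were -3.48 for Hoxa11, -2.82 for Hoxc8, -1.60 for Pitx1 and -1.03 (SE 0.83) for Prrx1. Prrx1 had 184 counts over the Lin-named libraries, against 1988 over the others, a ratio of CPM of 0.353 (0.302 to 0.411, counting error only). Hoxd8 was the only one of the 8 with a value above 0, at 3.48, 2.52 and 0 CPM in the Lin-named bone 3, fibrous 5 and bone 4, against 0 to 2.39 with a median of 0.767 in the others (2.14, SE 2.04, adjusted p = 0.559). It had -0.33 without bone 3. The median over the 8 genes was -3.15, beside -0.16 over all genes tested. Genes near 0 in Lin-named libraries, such as Hoxc9, passed the filter only through the other libraries, so this median carries no weight of its own. Of the further Hox genes tested here, 3 of the A and 3 of the C cluster, 0 were called, with 1 C gene above 0. Hoxa7 was at 2.28, 2.19 and 0 CPM in fibrous 5, bone 3 and bone 4, against 2.15 to 9.38 in the others. Its log2 fold change was -1.45 (SE 1.34, adjusted p = 0.547), and that of Hoxa5 was -2.01 (SE 2.53, adjusted p = 0.665). Hoxc6 had 0 counts in all 3 Lin-named libraries, against 0 to 2.94 CPM with a median of 1.76 in the others (adjusted p = 0.124), and Hoxa9 lay at 0 to 0.644 CPM, against 0.122 to 10.8 with a median of 3.95 (log2 fold change -5.28, SE 2.20, adjusted p = 0.188).

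Other cell types differed along the same division. The summed CPM of the 8 erythroid markers was 237100 to 595400 in Lin-named libraries, against 28650 to 138900 in the other L002 libraries, with 1 of 8 called higher, beside 0.926% of all genes. The 5 B cell markers summed to 552 to 1608, against 58.4 to 1395, with 2 of 5 called higher. The 10 marrow stromal markers summed to 16.95 to 39.0, against 59.3 to 12420, with 0 of 10 called and Ebf3 at 0 in all 3 Lin-named libraries. Of the matrix and skeletal markers, 2 of 8 tested fibroblast, 2 of 6 osteoblast and 5 of 8 chondrocyte genes were called lower, beside 1.66% of all genes, and the fibroblast list summed to 1004 to 6323, against 18330 to 80380. Without bone 1, bone 3, fibrous 3 or fibrous 4, edgeR called 0 genes in this comparison, these markers included. Their part in the values of Hoxa10 and Hoxc10 was not tested.

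Among the further genes of the pathway, those of limb and skeletal patterning did not pass either. Of 37 listed, 29 were in the matrix and 17 passed the filter. None of the 17 was called between fibrous and bone libraries by edgeR, and the fold changes of all 17 were positive (median 1.33), beside 51.9% of all genes above 0 and a median of 0.0260. Genes near 0 in bone libraries, such as Tbx18 and Osr2, passed the filter only through fibrous libraries, so that this count carries no weight of its own. The smallest p-values belonged to Tbx18, a T-box gene (mean 3.55 ± 2.28 CPM in fibrous, against 0.0644 ± 0.0997 in bone libraries; adjusted p = 0.873), and Osr2, a zinc finger gene of limb and joint mesenchyme (3.43 ± 4.00 against 0.0572 ± 0.140 CPM; adjusted p = 0.873). Osr2 lay at 0.532 to 11.8 CPM in fibrous libraries, against 0 to 0.343 in bone libraries, without overlap, as 0.0527% of all genes did, and was above 0 in bone 5 alone of the bone libraries. DESeq2 called both (adjusted p = 0.00619 for Tbx18 and 0.00123 for Osr2) and no other gene of the list, beside 1.27% of all genes. Shox2, a short stature homeobox gene of limb patterning, had means of 14.7 ± 8.93 CPM in fibrous tissue, against 9.02 ± 11.01 in bone (log2 fold change 0.93, SE 0.90). Prrx2, the paralogue of Prrx1, had means of 10.53 ± 7.83, against 5.52 ± 8.45 CPM (1.06, SE 0.90), and Tbx2 of 14.2 ± 13.9, against 4.71 ± 7.02 CPM (1.33, SE 0.995).

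Of the Pbx, Meis and Pknox genes, whose products bind DNA together with Hox proteins, 8 of 9 were tested and 0 called between fibrous and bone libraries. Of the 8, 7 were above 0 with a median of 0.56, beside 51.9% of all genes above 0 and a median of 0.0260. In Lin-named libraries 1 of the 8 cofactor genes tested there, Meis3, was called lower, beside 1.66% of all genes (log2 fold change -4.73, SE 0.92, adjusted p = 0.0453). That call too was lost when any one of the 4 libraries named above was left out. It was also lost without bone 4, where the 1 gene called was higher. Meis3 lay at 0.129, 0.201 and 1.42 CPM in bone 3, bone 4 and fibrous 5, against 7.18 to 21.2 in the other L002 libraries. Of the remaining Hox genes, Hoxa5, Hoxa7, Hoxa9 and Hoxc6 were tested and 0 called between fibrous and bone libraries, with log2 fold changes of -0.50, -0.05, 0.43 and 1.48. Of the 18 Polycomb and Trithorax genes, chromatin regulators that hold Hox genes silent or active, 0 were called. Among these 18, 12 were above 0 with a median of 0.40, beside the same 51.9% and 0.0260 over all genes. The smallest edgeR p-values of that list belonged to Men1 (log2 fold change 0.82, SE 0.26, unadjusted p = 0.00763), Kdm6a (1.13, SE 0.41, unadjusted p = 0.0162) and Cbx2 (2.75, SE 1.21, unadjusted p = 0.0411). Each had an adjusted p of 0.873. Ezh2, the Polycomb methyltransferase and next by p-value, averaged 101 ± 27.5 CPM in fibrous, against 82.0 ± 31.95 CPM in bone libraries (0.40, SE 0.19, adjusted p = 0.873).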

How the data were processed

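Raw counts per Ensembl gene were deposited by the authors as 1 matrix of 13 libraries. Per the labels' protocols, polyA RNA was made into TruSeq libraries and read on a NovaSeq. Per the submitters' processing notes, edgeR and the builds mm10 and hg38 were used, with no version or role given. How reads were aligned and counted, with which annotation and whether by strand, is not given in the sources used here. Each of the 23211 IDs had a symbol. Gene models and exon lengths came from GENCODE mouse release M21 on GRCm38.

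Tests were edgeR 4.0.16 (R 4.3.3) quasi-likelihood F tests with TMM factors and filterByExpr on 13294 genes, name series and group as terms, Benjamini-Hochberg adjustment over all tested genes and a threshold of 0.05. For the Lin-named libraries 13710 genes were tested in L002, with group as a term. Standard errors (SE) are fold changes on the log2 scale over the root of F. DESeq2 1.42.0, limma 3.58.1, other filters and scalings, and left-out libraries were alternatives. Normalised CPM are counts scaled by the filtered library size times its TMM factor. Intervals and the floor of 3 counts (0.0564 to 0.301 CPM per library) cover counting error only. The test was run on simulated counts with known changes first. Those counts had less spread than these data, whose common coefficient of variation between libraries was 0.904. They had no difference between name series, and changes only in genes above a minimum mean count. They therefore do not show how often changes in the 10 genes would be found. The members, lists and tests were chosen with earlier results of these data known. Besides the 10 genes, the text names from each list genes with the smallest p-values or highest means, and 5 genes of most similar pattern per profile (log2 CPM with a prior count of 2). Lepr, Col1a1, Hoxa11os and overlapping genes are named beside results they touch.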

Additional observations from a re-analysis of the deposited data

Results flagged for a closer look

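A single library lay far from the rest of its group in 5 of the 17 gene and group combinations examined, by the gap to the nearest other library relative to the whole range of the group. Chance flags about 1 in 20 such groups where values are normally distributed. These values are skewed, many are 0 and the genes share libraries, so the number found is not read against that rate. Hoxa11 was at 7.59 CPM in fibrous 2, with the next fibrous library at 1.87. In bone 1, Hoxa10 was at 25.7 CPM, with the next bone library at 9.45, and Hoxa11 at 8.04 CPM, with the next at 0.257. Hoxc8 in bone 2 was at 5.43 CPM, with the next bone library at 1.18. Hoxd8 in the Lin-named bone 3 was at 3.48 CPM, with the next bone library at 0.276.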

How the results depend on the processing

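Of 185 recomputed values for fibrous against bone libraries, 173 kept their direction and side of the threshold and 12 reversed, all of them Hoxc9 or Hoxc10 fold changes near 0. Without the name series term Hoxc9 was -0.076 and Hoxc10 -0.39, in L002 alone -0.40 and -0.76, and Hoxc10 was -0.10 without the Lin-named libraries, -0.35 without those low in Lepr and -0.33 to 0.91 with 1 library left out. DESeq2 called 169 genes, among them 2 of the limb patterning list, where edgeR called 0 with every library left out in turn. For the Lin-named libraries, 100 of 125 values kept direction and side, 20 lost a call, 3 gained one and 2 reversed. Genes called there numbered 354, against 3024 by DESeq2, 52 without a filter, 756 with a stricter one (1 CPM in 6 libraries), 1097 without fibrous 1 (only plus or Lin in the names), 15 with the name tokens as a replicate block, and 0 to 1097 with 1 library left out. Hoxd8 was -1.17 with the block and -0.33 to 3.00 with 1 library left out. Without a filter Hoxa10 and Hoxc10 missed the threshold (adjusted p = 0.0517 and 0.0671). The causes were not tested. No paired analysis was possible for fibrous against bone because replicate numbers follow accession order. Hoxd8 gave a value in 8 of 13 left-out fits and not in XY9274 alone. Hoxa11 gave none under the stricter filter, nor did Hoxc9 and Hoxd8 for the Lin-named libraries. Depth limits values under 0.301 CPM.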
